A study of Mus musculus with 16 samples.

Results

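Pax3, Pax7, Myf5, Myod1, Myog, Myf6, Mef2a, Mef2c and Mef2d, the transcription factors that set up and carry out the muscle programme, were followed by symbol through sorted mouse muscle cells. All 9 were found among the 24341 genes listed for each library. RNA was measured in 16 libraries of C57BL/6 mice aged 2 to 3 months, from cells gated on CD34+ and alpha-7 integrin+ and depleted of CD31-, CD11b-, CD45- or Sca-1-bearing cells. The groups are p53WT and p53KO, with no suffix (n = 3 each), with the suffix 3dai (n = 3 each) and with the suffix G2 (n = 2 each). The labels do not spell out the suffixes, and they do not give the allele or driver of the p53KO. The series title names a Duchenne model, while the labels of these libraries give no Dmd genotype. Cells of the groups with no suffix and of G2 came from hind limb and those of 3dai from tibialis anterior, so every 3dai difference is also a difference of muscle and the pair cannot be told apart. The labels do not state whether replicates came from different animals, and a p here therefore covers the spread between samples alone, which may be technical.

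Pax3 and Pax7 are paired-box factors that mark muscle progenitors, and Pax7 is the usual marker of the adult muscle stem cell. Myf5, Myod1, Myog and Myf6 are the basic helix-loop-helix (bHLH) myogenic factors: Myf5 and Myod1 act in commitment to muscle, Myog in differentiation, and Myf6 in later differentiation and in fibres. They bind DNA with E protein partners at the E box, and Id and related proteins hold those partners back. Mef2a, Mef2c and Mef2d are MADS-box factors that work with the bHLH factors on muscle genes through an A/T-rich site. Resting muscle stem cells are known to carry Pax7 and Myf5 transcript, to raise Myod1 soon after they are disturbed, and to raise Myog when they leave division.

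In mm10 the files place Pax3 at chr1:78101267-78197136 (-), Pax7 at chr4:139738081-139832968 (-), Myod1 at chr7:46376474-46379092 (+), Myog at chr1:134290004-134292548 (+), Mef2a at chr7:67231163-67372858 (-), Mef2c at chr13:83504034-83667079 (+) and Mef2d at chr3:88142395-88169167 (+).

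The level of each gene is given as FPKM, fragments per kilobase of transcript and per 1e6 fragments, which allows genes to be compared per length. Differences are given on the scale log2(FPKM + 1), which understates the change of genes with low values. A difference is called when limma gives it a p under 0.05 after Benjamini-Hochberg adjustment over 12954 genes. Trp53, the gene named by the knockout, lay at 39.9 to 161 FPKM in p53WT libraries and 6.34 to 45.7 in p53KO libraries, and within each suffix every p53KO library was below every p53WT library. Of the sort's own genes, Cd34 was at 27.1 FPKM or more, Itga7 at 81.1 or more, Pecam1 at 2.09 or less, Itgam at 0.286 or less, Ptprc at 0.00898 or less and Ly6a at 6.60 or less in every library. Steps of a single fragment in low genes put the depth of the libraries, in units of 1e6 fragments, at about 14 to 29 (an estimate, since no counts were used). The library p53KO replicate 3 stood apart from its group in Pax7, Myf5 and Myod1 and in the immediate early gene Fos (4273 FPKM against 1265 and 1164), and p53KO_3dai replicate 1 stood apart in Myf5, Mef2a and Mef2d. Values without them are given beside the results they move. Replicate 2 of p53WT was the highest of its group in Pax3, Mef2c, Pecam1 and Ly6a and the lowest in Pax7.

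Promoter sequence was available from RefSeq (GRCm38.p6) for Pax7, Myf5, Myog, Mef2a, Mef2c and Mef2d, and for Pax3, Myod1 and Myf6 there was no entry. The 250 bases before the start are shown for the 3 members that were called higher in at least 1 G2 comparison with the groups with no suffix, written 5′ to 3′ on the strand of the gene. Myog lies at chr1:134289754-134290003 (+), Mef2c at chr13:83503784-83504033 (+) and Mef2a at chr7:67372859-67373108 (-). Capitals mark the E box letters CANNTG and the MEF2 core, here TA, 4 bases that are each A or T, and TA.

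Myog: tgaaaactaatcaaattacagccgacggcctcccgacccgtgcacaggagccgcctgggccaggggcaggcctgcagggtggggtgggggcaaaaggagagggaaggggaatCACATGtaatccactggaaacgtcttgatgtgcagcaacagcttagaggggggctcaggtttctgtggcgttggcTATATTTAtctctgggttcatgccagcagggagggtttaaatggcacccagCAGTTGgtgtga
Mef2c: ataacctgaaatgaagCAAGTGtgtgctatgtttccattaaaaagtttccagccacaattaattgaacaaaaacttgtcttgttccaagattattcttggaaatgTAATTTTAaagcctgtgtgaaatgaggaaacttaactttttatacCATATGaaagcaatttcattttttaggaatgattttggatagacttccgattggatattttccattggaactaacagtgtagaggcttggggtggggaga
Mef2a: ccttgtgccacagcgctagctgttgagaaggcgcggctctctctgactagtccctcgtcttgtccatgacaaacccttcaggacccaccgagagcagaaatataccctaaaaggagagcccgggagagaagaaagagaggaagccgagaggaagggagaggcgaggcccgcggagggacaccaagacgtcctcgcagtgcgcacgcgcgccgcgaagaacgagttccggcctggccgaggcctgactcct

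The Myog window holds CANNTG as CACATG 138 to 133 bases and as CAGTTG 12 to 7 bases before the start, and the MEF2 core as TATATTTA 63 to 56 bases before it. GENCODE starts Myog at base 134289989, inside the end of this window, so CAGTTG lies after that start, while CACATG and TATATTTA lie before it. The Mef2c window holds CAAGTG (234 to 229) and CATATG (100 to 95) and the MEF2 core TAATTTTA (145 to 138). It is the window at the start that the expression files give for Mef2c. Windows at 2 other RefSeq starts of the gene, chr13:83523406-83523655 and chr13:83573357-83573606, hold 0 and 1 CANNTG and no MEF2 core. Neither motif was found in the window of Mef2a, nor in those of Pax7, Myf5 and Mef2d. The Pax7 window overlaps an exon of Pax7 in GENCODE, which starts the gene farther upstream, at base 139833528. The Mef2d window lies before base 88142372, while the expression files start Mef2d at base 88142395. Both strands were searched and no match overlaps another. Of 32817 RefSeq windows of this length 66.2% hold CANNTG and 8.6% the MEF2 core, so an E box match is common, and a match is a description and no site of binding.

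Of the 9 members 6 were called in 3dai against no suffix in each genotype, and 5 in G2 against no suffix. Between G2 and 3dai 3 were called in p53WT and 2 in p53KO, and none was called between the genotypes. These counts are given beside the share of all genes called and are not read as a trait of the set. In p53WT_3dai against p53WT, 2 members rose and 4 fell of 9, where 52.7% of all 12954 genes were called. In p53KO_3dai against p53KO, 1 rose and 5 fell, where 53.1% of all genes were called. For G2 against no suffix 3 rose and 2 fell in p53WT (27.5% of all genes called), and 2 rose and 3 fell in p53KO (29.6%). For G2 against 3dai 3 rose and 0 fell in p53WT (20.6%), and 2 rose and 0 fell in p53KO (23.2%). Both 3dai counts include Pax3 and Myf6, and the p53KO_G2 falls include Myf6. These are low genes that passed the filter through a few libraries, mostly on the high side of these differences. With a mean of at least 5 FPKM, which leaves Pax3, Myf6 and Mef2c untested, 1 rose and 3 fell in 3dai in each genotype. The 3dai and the G2 differences of a genotype share the libraries with no suffix and are therefore given side by side only. The median difference over the members was -0.48 and -0.89 in 3dai, against 0.23 and 0.14 over all genes, and 0.27 and -0.75 in G2, against 0.33 and 0.31 over all genes. Median-of-ratios scaling moves those 4 medians over all genes to -0.06, -0.09, 0 and -0.03. It also moves the split of all called genes, from 4122 higher and 2701 lower to 3040 and 3551 in p53WT_3dai, and from 3939 and 2944 to 3024 and 3701 in p53KO_3dai. In G2 against no suffix the split moves from 2868 and 698 to 1642 and 1523 in p53WT, and from 2916 and 914 to 1590 and 1641 in p53KO. For G2 against 3dai quantile normalization moves it from 1805 higher and 868 lower to 1388 and 1115 in p53WT, and from 2084 and 920 to 1465 and 1245 in p53KO. Leaving out small RNA and mitochondrial names moves it the other way, to 2107 and 507 in p53WT and 2281 and 628 in p53KO.

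**Figure D1:**
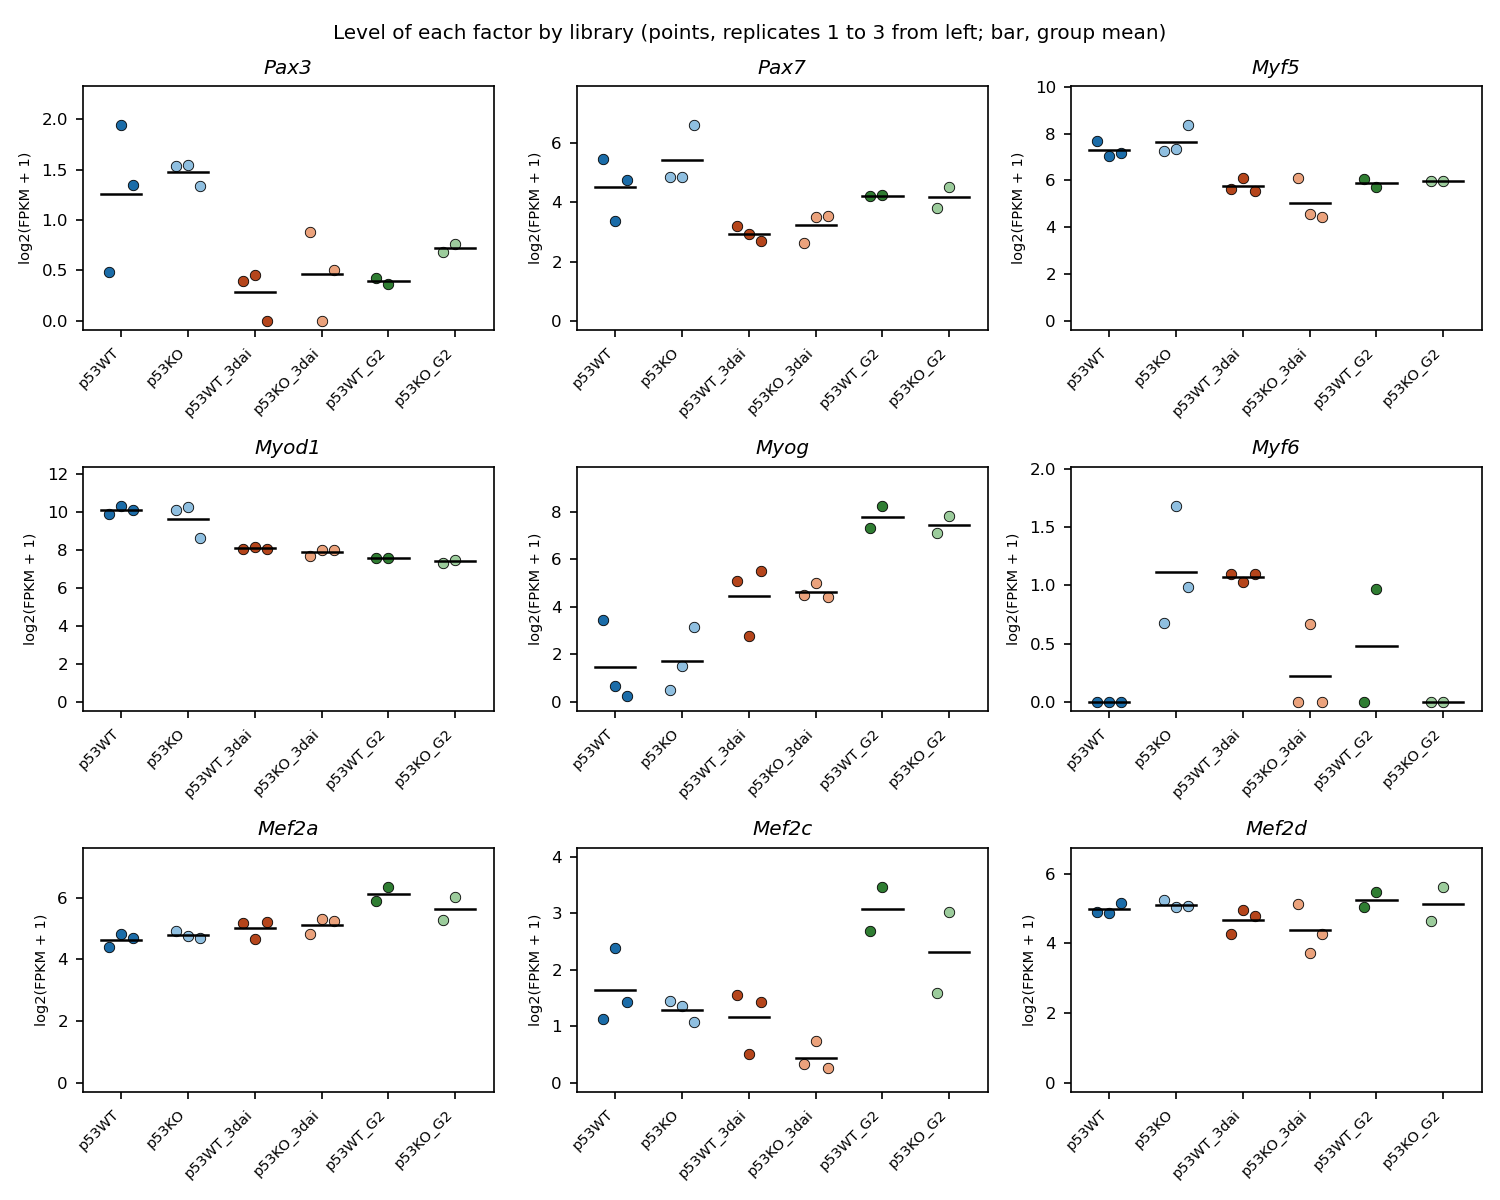
Level of each of the 9 factors as log2(FPKM + 1) (y axis) in the 16 libraries by group (x axis), with 1 point per library in order of replicate and a bar at the group mean. Myod1 and Myf5 are highest in the groups with no suffix, Myog is highest in G2, and Pax3 and Myf6 stay low throughout.

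Pax7 was highest in the groups with no suffix and lowest in 3dai. The p53WT libraries stood at 43.1, 9.33 and 26.0 FPKM, and the p53KO libraries at 27.7, 28.2 and 97.1. The p53WT_3dai libraries held 8.18, 6.67 and 5.45, against 5.22, 10.5 and 10.8 for p53KO_3dai. All 3dai libraries of a genotype lay below all of its libraries with no suffix, by a small margin in p53WT (8.18 against 9.33). Over all genes tested 59.7% did not overlap in p53WT and 58.7% in p53KO. Pax7 fell in 3dai in p53WT (log2 difference -1.59, SE 0.51, adjusted p = 0.0155) and in p53KO (-2.20, SE 0.51, adjusted p = 0.00184). The p53WT call was lost without p53WT replicate 1 (-1.12, adjusted p = 0.089), without p53WT replicate 3 (-1.47, adjusted p = 0.0519), without p53WT_3dai replicate 3 (-1.46, adjusted p = 0.0518) and with no filter (adjusted p = 0.0698). In p53KO the call held in 16 of 16 alternatives, and without p53KO replicate 3 the difference was -1.62 (adjusted p = 0.0107).

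By group mean Pax7 in G2 lay between these levels, at 17.6 and 17.9 FPKM in p53WT_G2 and 13.1 and 22.0 in p53KO_G2. Against no suffix neither genotype was called (-0.30, adjusted p = 0.734, and -1.27, adjusted p = 0.105), although both p53KO_G2 libraries were below all 3 p53KO libraries. Between these groups 52.1% of all genes tested did not overlap. Under median-of-ratios scaling the p53KO difference was called (-1.69, adjusted p = 0.0434). Without p53KO replicate 3 it was -0.69 (adjusted p = 0.351). Between G2 and 3dai 53.8% of all genes tested did not overlap in p53WT and 48.9% in p53KO. Against 3dai Pax7 was higher in every G2 library, by 1.28 in p53WT (adjusted p = 0.124) and 0.93 in p53KO (adjusted p = 0.256), and neither difference was called. In a fit of only p53WT_G2 and p53WT_3dai the first was (adjusted p = 0.0131), as it was with array weights (1.23, adjusted p = 0.0254).

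Pax3, the relative of Pax7 that guides limb muscle progenitors in the embryo, was near the limit of what was kept for testing. It reached 1 FPKM in 5 libraries, all with no suffix, and passed the filter through them, so its fall is read with that in view. Its values were 0.402, 2.84 and 1.54 FPKM in p53WT and 1.90, 1.92 and 1.54 in p53KO. Among the 3dai libraries they were 0.316, 0.366 and 0 in p53WT_3dai and 0.846, 0 and 0.414 in p53KO_3dai, and in G2 0.338 and 0.284 in p53WT_G2 and 0.604 and 0.698 in p53KO_G2. A level of 2.84 FPKM is worth about 225 fragments, and the levels in 3dai that are above 0 are worth about 29 to 47. Pax3 fell in 3dai in p53WT (-0.98, SE 0.35, adjusted p = 0.0298) and in p53KO (-1.01, SE 0.35, adjusted p = 0.025). The first call held in 9 of 15 alternatives (highest adjusted p 0.152, without p53WT replicate 2) and the second in 10 of 15 (highest 0.115, without p53KO_3dai replicate 2). In G2 Pax3 was not called in either genotype (-0.87, adjusted p = 0.117, and -0.75, adjusted p = 0.17). The p53WT difference was called under quantile normalization (-1.30, adjusted p = 0.044) and without p53WT replicate 1 (-1.25, adjusted p = 0.0245). Of the other Pax genes and Mef2b, 8 genes in all, 0 passed the filter.

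Myod1 was the most abundant member in every library except replicate 2 of both G2 groups, where Myog exceeded it, and it was lower outside the groups with no suffix. It codes MyoD, which can turn other cells into muscle when it is supplied to them. The p53WT libraries held 961, 1269.7 and 1083 FPKM, and the p53KO libraries 1094, 1218 and 390.2. The p53WT_3dai libraries held 261, 282 and 266, against 205, 253 and 255 for p53KO_3dai. The p53WT_G2 libraries held 192 and 193, against 161 and 174 for p53KO_G2. The 3dai and G2 libraries stayed within narrow ranges, and no library of theirs reached the lowest one with no suffix. In the 3dai and G2 comparisons with no suffix 52.1% to 59.7% of all genes tested did not overlap. Myod1 fell in 3dai by 2.02 on the log2 scale in p53WT (SE 0.30, adjusted p = 5.14e-05) and by 1.76 in p53KO (SE 0.30, adjusted p = 0.000175). In G2 it fell by 2.51 in p53WT (SE 0.34, adjusted p = 7.77e-05) and by 2.26 in p53KO (SE 0.34, adjusted p = 0.000179). These 4 calls held in every alternative run. Without p53KO replicate 3 the log2 differences in p53KO were -2.28 in 3dai and -2.78 in G2. G2 libraries were below all 3dai libraries of their genotype, where 53.8% (p53WT) and 48.9% (p53KO) of all genes tested did not overlap. The differences of -0.48 and -0.50 were not called (adjusted p = 0.339 and 0.314). A fit of only p53WT_G2 and p53WT_3dai called the first (adjusted p = 0.0236).

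Myf5, which with MyoD commits cells to muscle, was also highest in the groups with no suffix. Unlike Myod1 its group means were lowest in 3dai, in p53WT by little (54.4 FPKM against 57.9 in G2). The p53KO_3dai libraries split. It stood at 205, 129 and 142 FPKM in p53WT and at 153, 159.7 and 328 in p53KO. In p53WT_3dai the values were 48.6, 68.4 and 46.1, and in p53KO_3dai 67.5, 23.0 and 20.3. Replicates 2 and 3 of p53KO_3dai were the lowest of all 16 libraries, while replicate 1 lay among the p53WT_3dai libraries. G2 gave 64.8 and 51.1 in p53WT_G2 and 62.2 and 61.1 in p53KO_G2, all below every library with no suffix. Of all genes tested 56.1% did not overlap between G2 and no suffix in p53WT and 52.1% in p53KO. Myf5 fell in 3dai in p53WT (-1.52, SE 0.38, adjusted p = 0.00343) and in p53KO (-2.62, SE 0.38, adjusted p = 3.58e-05), and both calls held in 16 of 16 alternatives. Without p53KO replicate 3 the p53KO difference was -2.27, and without p53KO_3dai replicate 1 it was -3.15. Myf5 fell in G2 in p53WT (-1.42, SE 0.43, adjusted p = 0.0214) and in p53KO (-1.68, SE 0.43, adjusted p = 0.00787). Without p53WT_G2 replicate 1 or 2 or p53WT replicate 1 the p53WT call was lost (adjusted p = 0.0631, 0.155 and 0.0729), as it was with no filter (0.0922). Without p53KO_G2 replicate 1 the p53KO call was lost (adjusted p = 0.0537), and without p53KO replicate 3 it held at -1.33 (adjusted p = 0.0302). Between p53WT_G2 and p53WT_3dai the Myf5 difference was 0.10 and not called (adjusted p = 0.901), and the libraries overlapped. Between p53KO_G2 and p53KO_3dai it was 0.94 (adjusted p = 0.127). Without p53KO_3dai replicate 1 the latter was 1.47 and called (adjusted p = 0.00503), and it was also called with array weights (1.31, adjusted p = 0.0152).

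Myog, which codes myogenin, showed the widest range of the members, from 0.181 to 304 FPKM. The groups with no suffix held 10.0, 0.583 and 0.181 FPKM in p53WT and 0.410, 1.86 and 7.91 in p53KO. Among the 3dai libraries the values were 33.0, 5.78 and 44.4 in p53WT_3dai and 21.4, 31.6 and 20.1 in p53KO_3dai. The p53WT_G2 libraries held 162 and 304, against 136 and 229 for p53KO_G2. Every G2 library was above every 3dai library, and the only overlap between 3dai and no suffix was p53WT_3dai replicate 2, at 5.78, against p53WT replicate 1, at 10.0, and p53KO replicate 3, at 7.91. Within a genotype 53.8% (p53WT) and 48.9% (p53KO) of all genes tested did not overlap between G2 and 3dai.

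Myog rose in 3dai by 3.00 on the log2 scale in p53WT (SE 0.83, adjusted p = 0.00656) and by 2.91 in p53KO (SE 0.83, adjusted p = 0.00775). It rose in G2 by 6.34 in p53WT (SE 0.93, adjusted p = 0.000144) and by 5.75 in p53KO (SE 0.93, adjusted p = 0.000325), the largest differences of any member. All 4 calls held in every alternative run. From 3dai to G2 the differences were 3.35 in p53WT (SE 0.93, adjusted p = 0.0184) and 2.83 in p53KO (SE 0.93, adjusted p = 0.0378), both called. The p53WT call was lost without p53WT_3dai replicate 2 (2.50, adjusted p = 0.0708) and without p53WT_G2 replicate 1 (3.80, 0.0581) or 2 (2.89, 0.149). The p53KO call was lost without any single library of p53KO_G2 or p53KO_3dai (adjusted p = 0.0635 to 0.202). With a pseudocount of 0.1 both were lost as well (adjusted p = 0.082 and 0.132), and with no filter (0.0944 and 0.157).

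The ratio of Myog to Myod1, which a single factor per library cannot change, was 0.0203 or less in all 6 libraries with no suffix. It was 0.0205 to 0.167 in 3dai. The p53WT_G2 ratios were 0.841 and 1.58 and those of p53KO_G2 0.847 and 1.31, so that Myog exceeded Myod1 in replicate 2 of both G2 groups. The transcript of the differentiation factor stood near that of MyoD in G2 and below it elsewhere.

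Myf6, which lies beside Myf5 on chromosome 10 (Myf6 at chr10:107492860-107494729 and Myf5 at chr10:107482908-107486134, both on the minus strand, mm10), codes the factor that is abundant in adult fibres. It was listed at 0 in 8 of 16 libraries and reached 1 FPKM in 4. All 3 p53WT libraries were listed at 0, and p53KO held 0.595, 2.21 and 0.983 FPKM. In 3dai the order turned, with 1.14, 1.04 and 1.14 in p53WT_3dai and 0, 0.588 and 0 in p53KO_3dai, while G2 gave 0 and 0.953 in p53WT_G2 and 0 and 0 in p53KO_G2. Values above 0 are worth about 12 to 76 fragments each, and a listed 0 is not taken as absence. Against no suffix Myf6 was called higher in p53WT_3dai (1.08, SE 0.33, adjusted p = 0.0129). That comparison is with a group at exactly 0, and Myf6 passed the filter through the 3 p53WT_3dai libraries and p53KO replicate 2, so a difference there was built into the choice of genes tested. In p53KO it was called lower in 3dai (-0.89, SE 0.33, adjusted p = 0.0337) and in G2 (-1.11, SE 0.37, adjusted p = 0.0337). There p53KO replicate 2, among the libraries through which Myf6 passed the filter, is on the high side of both. Both p53KO_G2 libraries are listed at 0, so these falls too were in part built into the choice. These calls held in 10 of 14 and 8 of 13 alternatives, with adjusted p up to 0.167 and 0.132, both without p53KO replicate 2. The first was also lost without p53KO_3dai replicate 1 (-0.78, adjusted p = 0.0991).

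**Figure D2:**
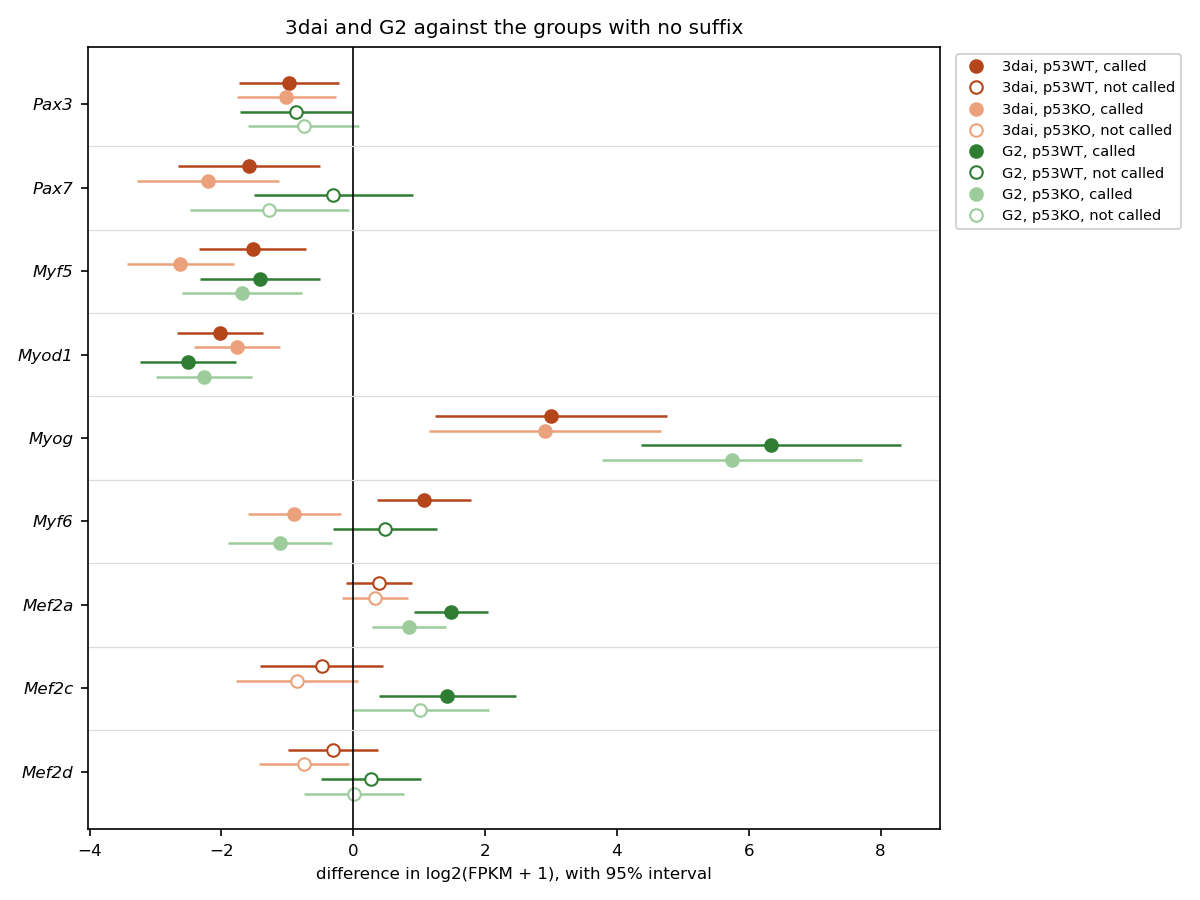
Difference in log2(FPKM + 1) (x axis) of 3dai and of G2 from the groups with no suffix, for each factor (y axis) and genotype, with 95% intervals from limma; filled points were called. Myod1 and Myf5 lie below 0 in all 4 comparisons and Myog lies above 0 in all 4, up to 6.34.

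Mef2a, an activator of muscle structural genes, rose in G2 and was above 20 FPKM in every library. It stood at 20.1, 27.4 and 24.8 FPKM in p53WT, at 29.4, 25.9 and 25.2 in p53KO, at 35.3, 24.5 and 36.6 in p53WT_3dai and at 27.2, 38.5 and 37.1 in p53KO_3dai. It reached 58.9 and 80.5 in the p53WT_G2 libraries, against 37.5 and 64.3 in those of p53KO_G2. The p53WT_G2 libraries were above all other groups with 1 exception, the p53KO_G2 library at 64.3, while the lower p53KO_G2 library lay within the 3dai range. Against no suffix Mef2a rose by 1.49 in p53WT (SE 0.26, adjusted p = 0.000701), in 15 of 15 alternatives, and by 0.85 in p53KO (SE 0.26, adjusted p = 0.0236), in 9 of 15. The p53KO call was lost without p53KO_G2 replicate 2 (0.47, adjusted p = 0.278), without p53KO replicate 2 (0.83, 0.0561), under median-of-ratios scaling (0.43, 0.271), under quantile normalization (0.53, 0.161), with no filter (0.0545) and with only the groups compared (0.0688). Against 3dai it rose in p53WT (1.10, SE 0.26, adjusted p = 0.00821), a call lost without p53WT_G2 replicate 2 (0.88, adjusted p = 0.118), and was not called in p53KO (0.52, adjusted p = 0.17). In 3dai against no suffix Mef2a was not called (0.39 and 0.33, adjusted p = 0.18 and 0.257), and under median-of-ratios scaling these differences were -0.00 and 0.01.

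Mef2c, the Mef2 gene needed early in heart and muscle differentiation, was low outside G2. The values were 1.19, 4.24 and 1.68 FPKM in p53WT and 1.74, 1.56 and 1.10 in p53KO. Among the 3dai libraries they were 1.95, 0.425 and 1.70 in p53WT_3dai and 0.250, 0.675 and 0.193 in p53KO_3dai, while p53WT_G2 held 5.42 and 10.0 against 2.01 and 7.16 for p53KO_G2. Replicate 2 of each G2 group was the higher one, as it was for Myog and Mef2a. From 3dai to G2 Mef2c rose in p53WT (1.90, SE 0.49, adjusted p = 0.0121) and in p53KO (1.87, SE 0.49, adjusted p = 0.0127). Without p53WT_G2 replicate 2 and p53KO_G2 replicate 2 in turn these calls were lost (1.51, adjusted p = 0.143, and 1.15, adjusted p = 0.192), and under quantile normalization both were lost (0.0575 and 0.0976), as was the p53KO call with only the groups compared (0.0511). Against no suffix p53WT_G2 was called (1.43, SE 0.49, adjusted p = 0.0406), but the call held in only 4 of 14 alternatives (adjusted p 0.0158 to 0.3), and with the replicate number as a block it was 1.38 (adjusted p = 0.0553). The p53KO_G2 difference of 1.02 was not called (adjusted p = 0.132), and without p53KO_G2 replicate 1 it was 1.74 and called (adjusted p = 0.0458). In 3dai neither genotype was called (-0.48 and -0.85, adjusted p = 0.378 and 0.114), but the p53KO difference was called with a pseudocount of 0.1 (-1.84, adjusted p = 0.0415), with array weights (-0.93, 0.0357) and with only the groups compared (0.0459).

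Mef2d, the Mef2 gene that is present before and during differentiation, was called in no comparison. Its level was 29.0, 28.5 and 35.0 FPKM in p53WT, 36.6, 31.8 and 32.8 in p53KO, 18.4, 30.1 and 26.5 in p53WT_3dai and 33.7, 12.2 and 18.3 in p53KO_3dai. The p53WT_G2 libraries held 31.7 and 43.6, against 23.9 and 48.0 for p53KO_G2, with differences from no suffix of 0.27 and 0.01 that became -0.15 and -0.41 under median-of-ratios scaling, all of them not called. The nearest to a call was p53KO_3dai against p53KO (-0.74, SE 0.32, adjusted p = 0.0626), where replicate 1 lay within the p53KO range and replicates 2 and 3 below it. That difference was called under median-of-ratios scaling (-1.07, adjusted p = 0.0091), under quantile normalization (adjusted p = 0.0146), with array weights (adjusted p = 0.00259), with small RNA and mitochondrial names left out (-0.95, 0.0258) and without p53KO_3dai replicate 1 (-1.12, 0.00521). Without that library p53KO_G2 was also called higher than p53KO_3dai (1.13, adjusted p = 0.0184).

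As shares of the summed FPKM of Mef2a, Mef2c and Mef2d, which a single factor per library cannot change, Mef2a held 40.0% to 45.6% in the 6 libraries with no suffix, where Mef2d was the larger in each. It held 61.4% and 60.0% in the p53WT_G2 libraries, against 59.1% and 53.8% in those of p53KO_G2, and was the larger in each. The 3dai libraries did not agree among themselves. In p53WT_3dai replicate 2 and p53KO_3dai replicate 1 Mef2a held 44.6% and 44.5%, within the range with no suffix, and in the other 4 it held 56.4% to 74.9%. The share of Mef2c was 7.47% or less everywhere.

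**Figure D3:**
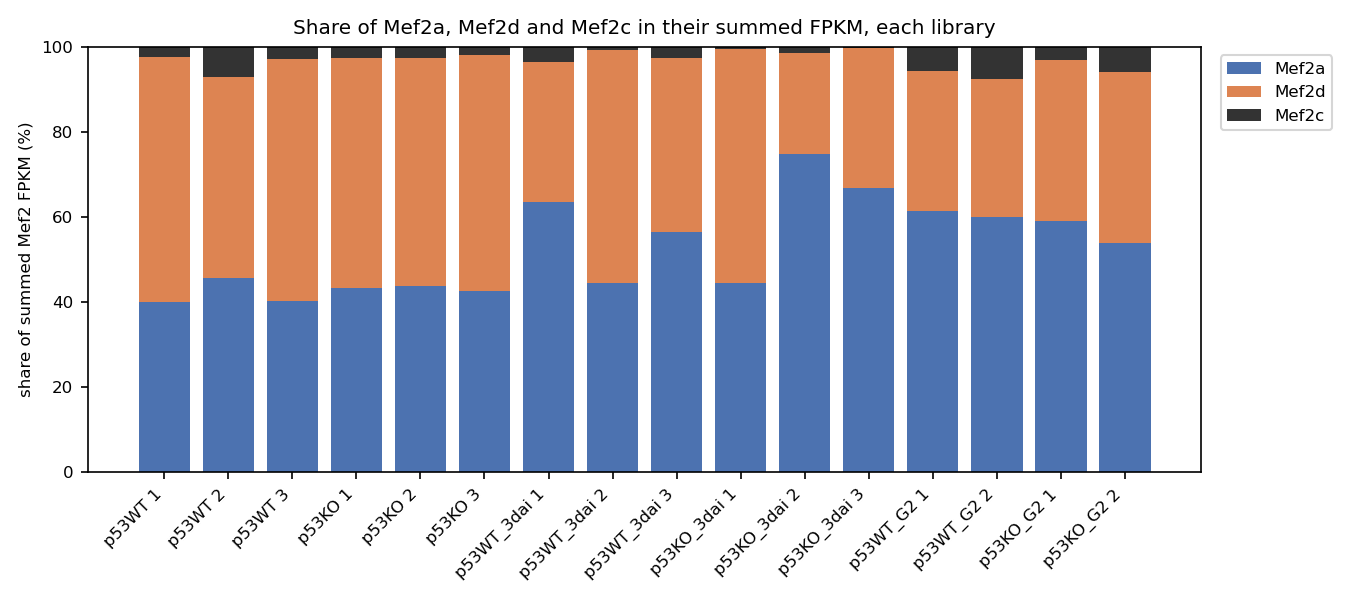
Share of Mef2a, Mef2d and Mef2c in their summed FPKM (y axis, percent) in each of the 16 libraries (x axis, group and replicate). Mef2a holds 40.0% to 45.6% with no suffix and 53.8% to 61.4% in G2, and the 3dai libraries spread from 44.5% to 74.9%.

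Between the genotypes no member was called: 0 of 9 with no suffix, where 0.00772% of all genes were called, 0 of 9 in 3dai (0.0849%) and 0 of 9 in G2 (0.0695%). By limma's unadjusted p under 0.05 the counts were 1, 1 and 0 of 9, the 1 being Myf6 both times. The libraries through which Myf6 passed the filter lay in the higher group each time. Over all genes 512, 1151 and 631 had an unadjusted p under 0.05, and the members' count of 0 lies at these backgrounds. In 3dai 11 genes were called, against 804 with array weights and 514 without p53KO_3dai replicate 1. With no suffix the differences ran from -0.45 for Myod1 to 1.11 for Myf6, with 95% intervals of -1.10 to 0.20 for Myod1, -0.17 to 1.99 for Pax7 and -0.45 to 1.17 for Myf5. Without p53KO replicate 3 these 3 were 0.07, 0.33 and 0.01, so the sign of Myod1 rests on that library, as does that of Myog (0.27, and -0.45 without it). In 3dai the member with the smallest adjusted p was Myf6 (-0.85, adjusted p = 0.421), followed by Myf5 (-0.74, 95% interval -1.55 to 0.08, adjusted p = 0.601). Myf5 was called lower without p53KO_3dai replicate 1 (-1.27, adjusted p = 0.0305) and with array weights (-1.18, adjusted p = 0.0189), which weigh libraries by how well they match their group. That library was also the highest of its group in summed FPKM of the markers of Schwann cells (34.8 against 7.98 and 2.64). The same held for pericytes and smooth muscle (45.4 against 17.5 and 14.1) and tenocytes (71.6 against 35.9 and 36.0). The remaining marker lists are given below by group and not by library, so they do not show whether this library was highest in them. Ly6a, a fibro-adipogenic marker, was not highest in it (0.593 FPKM against 6.60 and 0). Pecam1, Itgam and Ptprc were listed at 0 in all 3 libraries of the group. The part of these cell types in the Myf5 difference was not tested. For Myod1 the genotypes did not overlap in 3dai or in G2, p53KO being the lower, with differences of -0.19 (95% interval -0.84 to 0.46) and -0.20 (-0.997 to 0.592), and neither was called. Over all genes 12% did not overlap between the genotypes in 3dai and 31.2% in G2. In G2 no member had an unadjusted p under 0.05, and the lowest differences were those of Mef2c (-0.76, 95% interval -1.90 to 0.37), Myf6 (-0.48) and Mef2a (-0.48, 95% interval -1.09 to 0.13).

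**Figure D4:**
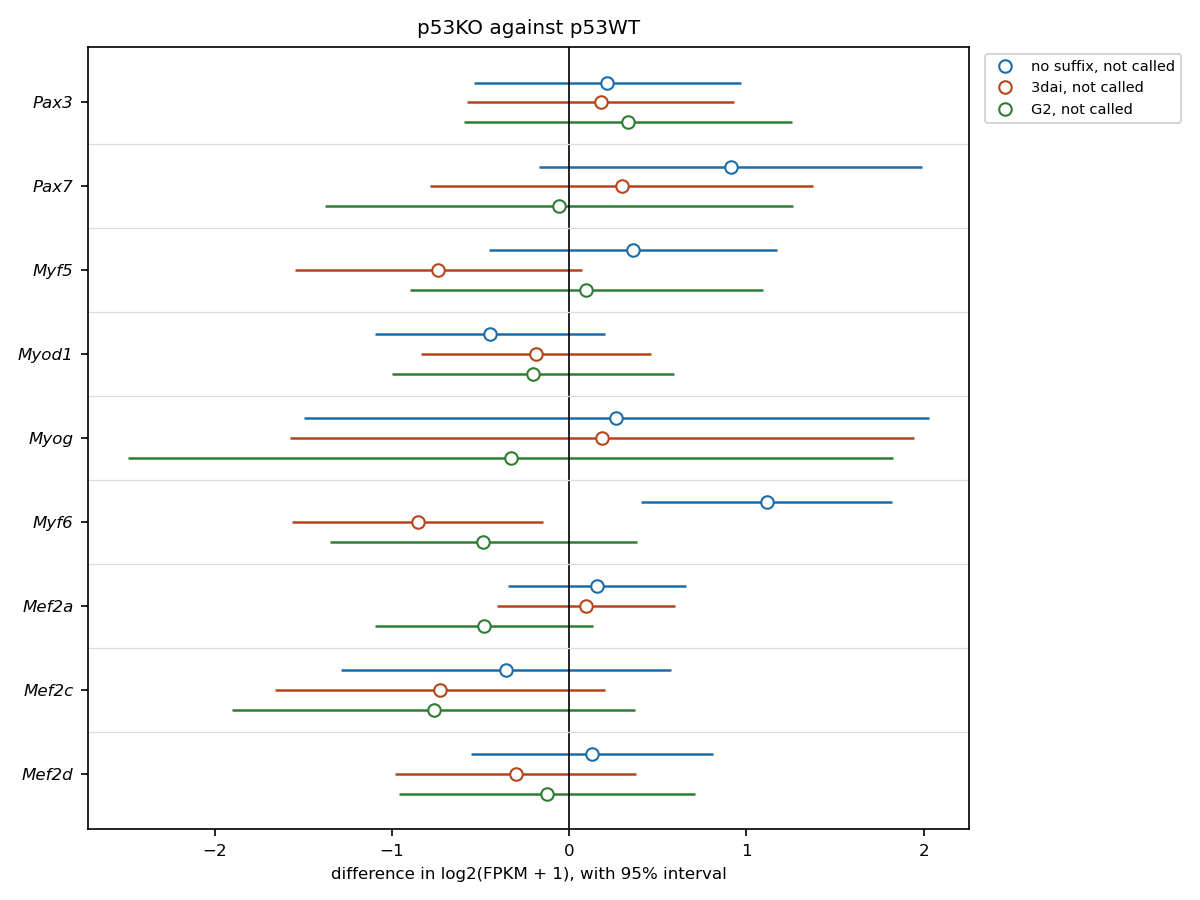
Difference in log2(FPKM + 1) between p53KO and p53WT (x axis) of each factor (y axis), drawn separately for libraries without suffix, 3dai and G2, with 95% intervals from limma. No point was called, and apart from Myf6 with no suffix and in 3dai every interval includes 0.

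Whether the genotype difference itself differed between suffixes was tested with interaction terms. In 3dai against no suffix 0 of 9 members were called, and 0% of all genes, while 146 genes (11 higher, 135 lower) and 0 members were called without p53KO_3dai replicate 1. In G2 against no suffix 0 of 9 were called, with 0.0232% of all genes. The smallest unadjusted p was that of Myf6 in 3dai (-1.97, SE 0.47, unadjusted p = 0.000774, adjusted p = 0.528), and 1 member of 9 had an unadjusted p under 0.05 in each interaction, Myf6 both times. Without p53KO_3dai replicate 1 the Myf6 term was -1.86 (adjusted p = 0.108). Myf6 passed the filter only through libraries of p53WT_3dai and p53KO, the high groups of the 3dai term. A difference there was built into the choice of genes tested. For Myf5 the 3dai term was -1.10 (SE 0.54, adjusted p = 0.82), and without that library -1.63 (adjusted p = 0.0771). The falls of Myf5 in p53WT_3dai and p53KO_3dai are therefore not shown to differ in size.

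An order was seen among the 6 libraries with no suffix, chosen after the values were seen and not tested. Ranked by Pax7 from high to low (97.1, 43.1, 28.2, 27.7, 26.0 and 9.33 FPKM), the libraries had Myf5 at 328, 205, 159.7, 153, 142 and 129, in the same order. Myog in that ranking was 7.91, 10.0, 1.86, 0.410, 0.181 and 0.583 FPKM. The libraries highest in Pax7, p53KO replicate 3 and p53WT replicate 1, were thus also the highest in Myog. The library highest in Pax7, p53KO replicate 3, was lowest in Myod1 (390.2), and the library lowest in Pax7, p53WT replicate 2, was highest in Myod1 (1269.7). The ratio of Myod1 to Pax7 therefore ran from 4.02 to 136 over libraries with no suffix, against 23.6 to 48.8 in 3dai and 7.90 to 12.3 in G2. In p53WT replicate 2, which sets the 136, Pecam1 was 2.09 FPKM, against 0 and 0.0117 in the other p53WT libraries. Its Ly6a was 2.79, against 0 and 0, and its Pax3 (2.84) and Mef2c (4.24) were also the highest of p53WT. Fos, an immediate early gene of disturbed cells that was chosen after its values were seen, was likewise highest in p53KO replicate 3 (4273 FPKM) and lowest in p53WT replicate 2 (604). In 3dai Fos was 27.2 to 75.8 and in G2 163 to 409. Whether Fos has a part in the order of the members was not tested.

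**Figure D5:**
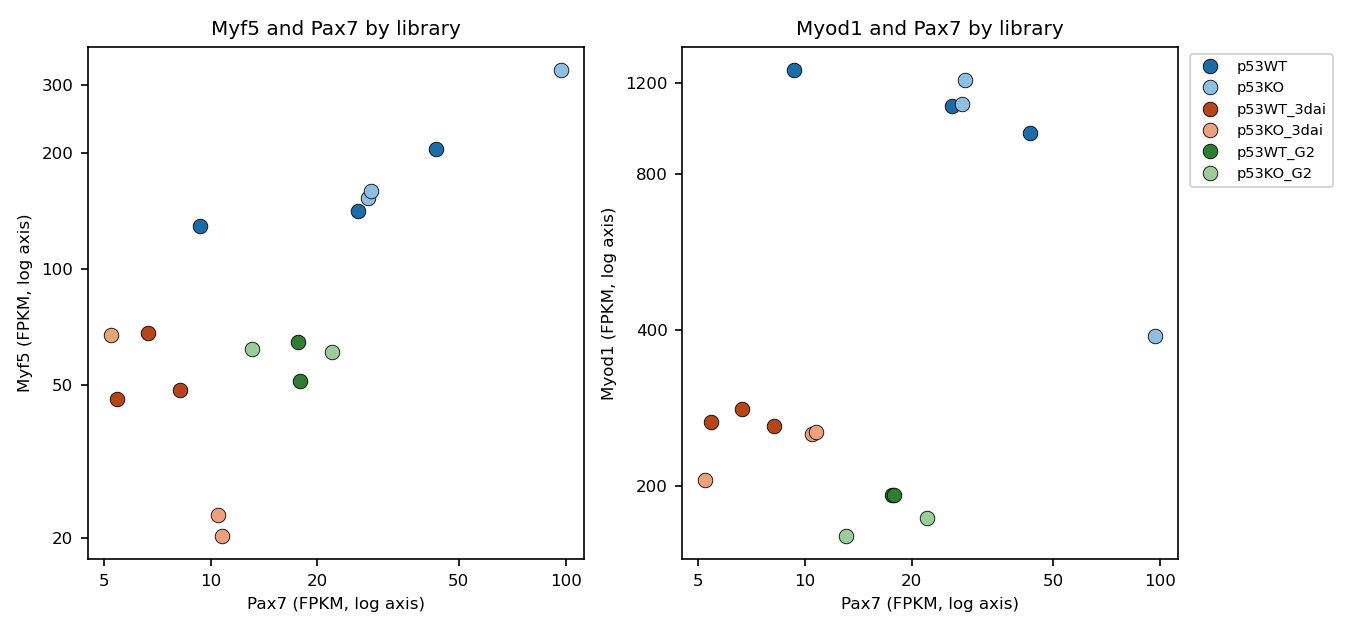
Myf5 (left) and Myod1 (right) against Pax7 in the 16 libraries, all in FPKM on log axes, with colour for the group. With no suffix Myf5 follows the order of Pax7, and the library with the most Pax7 (97.1) has the least Myod1 (390.2) of its 6.

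In 3dai the order was another one. The 2 libraries with the most Myf5, p53WT_3dai replicate 2 (68.4) and p53KO_3dai replicate 1 (67.5), also had the least Mef2a (24.5 and 27.2) and the most Mef2d (30.1 and 33.7) of the 6. The libraries with the most Pax7, p53KO_3dai replicates 2 and 3 (10.5 and 10.8), had the least Myf5 (23.0 and 20.3). These orders were seen in the values and are a description of 6 libraries.

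For each member whose group means span at least 2 on the log2 scale, the 3 genes with the most similar course over the 16 libraries were looked for among 9546 genes, by the root mean square difference in log2(FPKM + 1) after each gene's own mean was taken off. Nearest to Pax7 were Fgfr4 (0.34), a fibroblast growth factor receptor, Ncoa1 (0.39), a nuclear receptor coactivator, and Arhgef6 (0.44), a guanine nucleotide exchange factor, where the median candidate was at 1.28. Fgfr4 stood at 103 ± 43.2 FPKM in p53WT (SD, n = 3), 18.2 ± 2.69 in p53WT_3dai (n = 3) and 60.0 ± 5.13 in p53WT_G2 (n = 2). Nearest to Myf5 were Vgll4, a TEAD cofactor, Bambi, a pseudoreceptor of the TGF-beta family, and Cables1, a CDK5- and ABL-binding protein (0.31, 0.31 and 0.33). Bambi and Cables1 were low in 3dai and G2, with group means of 0.93 to 2.10 and 0.84 to 1.36 FPKM. Nearest to Myod1 were Sla, an adaptor protein (0.40), Odc1, the first enzyme of polyamine synthesis (0.42), and Adarb1, an RNA editing enzyme (0.46). Sla held 6.52 ± 3.76 FPKM in p53WT and 3.61 ± 1.85 in p53KO and was listed at 0 in 3dai and G2, so it shows no course there. Odc1 went from 911 ± 102 FPKM in p53WT to 365 ± 31.2 in p53WT_3dai and 236 ± 6.66 in p53WT_G2, as group means. Nearest to Myog were Tmem8c, the fusion protein myomaker (0.85), Mylpf, a fast myosin light chain (0.89), and Actc1, cardiac actin (0.93), with a median candidate at 2.46. Tmem8c stood at 0.15 ± 0.26 FPKM in p53WT, 13.8 ± 11.1 in p53WT_3dai and 73.8 ± 34.7 in p53WT_G2. Nearest to Mef2c were Xirp1, an actin-binding protein of muscle (0.36), Cap2, a cyclase-associated actin regulator (0.40), and Ss18l1, a chromatin remodelling subunit (0.44). Libraries of a group share tissue and suffix, and these distances describe the 16 libraries only.

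The partners of the bHLH members, the E proteins, changed in both directions. Tcf3, which codes E12 and E47, rose in 3dai from 9.01 ± 2.04 FPKM in p53WT to 59.0 ± 2.81 in p53WT_3dai (2.60, adjusted p = 1.03e-06), and in p53KO by 2.38 (adjusted p = 2.46e-06). Tcf12, which codes HEB, rose from 26.8 ± 4.73 to 59.4 ± 5.33 (1.13, adjusted p = 0.000121), and Tcf4 fell from 38.0 ± 7.79 to 17.6 ± 2.74 (-1.06, adjusted p = 0.000571). In G2 Tcf3 and Tcf12 rose in p53WT (1.78 and 1.35, adjusted p = 0.000418 and 0.00024) and in p53KO (2.11 and 1.14, adjusted p = 9.54e-05 and 0.000899), and Tcf4 was not called.

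Of 17 inhibitors of bHLH factors, 1 rose and 10 fell in 3dai in each genotype, with a median of -1.53 in p53WT and -1.62 in p53KO. Over all genes 52.7% were called in 3dai in p53WT and 53.1% in p53KO, with medians of 0.23 and 0.14. In G2 against no suffix 27.5% and 29.6% of all genes were called. The lists were chosen with earlier results of these data known, so the counts of this and the other lists are a description. Msc, the repressor musculin that binds E boxes, fell from 334, 333 and 286 FPKM in p53WT to 6.49, 6.13 and 7.61 in p53WT_3dai (-5.36, adjusted p = 5.85e-06). In p53KO it fell from 276, 322 and 315 to 14.8, 0.996 and 0 (-6.59, adjusted p = 7.31e-07), and the G2 libraries held 59.4 and 30.3 in p53WT_G2 and 46.2 and 50.5 in p53KO_G2. Heyl, a Notch effector, fell to 0.60 ± 0.16 from 31.5 ± 11.7 FPKM in p53WT_3dai (-4.29, adjusted p = 2.19e-07), and Snai1, an E box repressor, rose to 10.5 ± 4.82 from 2.11 ± 1.30 (1.89, adjusted p = 0.00271). In G2 1 of the 17 rose and 3 fell in p53WT, and 2 rose and 6 fell in p53KO. Id3, which binds E proteins, fell from 1132 ± 533 to 275 ± 56.3 FPKM in p53WT_G2 (-1.96, adjusted p = 0.00433). Mdfi, an inhibitor of the bHLH myogenic factors, rose from 2.65, 0.484 and 2.31 FPKM in p53WT to 5.08 and 8.55 in p53WT_G2 (1.54, adjusted p = 0.0301).

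Of 16 upstream homeobox and Eya factors tested of 17, 6 rose and 3 fell in 3dai in p53WT, and 4 rose and 4 fell in p53KO. These counts lie near the 52.7% and 53.1% of all genes called. Six4, a homeobox activator of Myog, rose from 1.55 ± 0.71 to 15.8 ± 5.84 FPKM in p53WT_3dai (2.70, adjusted p = 4.57e-05) and to 12.4 ± 4.42 in p53WT_G2 (2.40, adjusted p = 0.00109). Meox2, a homeobox factor of limb muscle, fell from 8.85 ± 1.34 to 0.131 ± 0.227 in p53WT_3dai (-3.13, adjusted p = 1.79e-06). In G2 5 rose and 1 fell in p53WT, and 3 rose and 1 fell in p53KO (27.5% and 29.6% of all genes called). Lbx1, a homeobox factor of migrating limb muscle precursors, rose from 3.86, 8.74 and 11.8 FPKM in p53WT to 45.8, 38.4 and 30.3 in p53WT_3dai (2.19, adjusted p = 0.00107). Eya4, a transcriptional coactivator of homeobox factors, fell from 10.8, 8.33 and 10.1 FPKM in p53WT to 2.45, 1.98 and 4.91 in p53WT_3dai (-1.44, adjusted p = 0.0018). Barx2, a homeobox factor of muscle progenitors, rose from 0.545, 2.90 and 0.459 FPKM in p53WT to 6.28 and 7.32 in p53WT_G2 (1.92, adjusted p = 0.0138).

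Of 18 MEF2 cofactors tested of 19, 5 rose and 6 fell in 3dai in p53WT, and 4 rose and 4 fell in p53KO. These counts stand beside 52.7% and 53.1% of all genes called. Mamstr, a MEF2 coactivator of skeletal muscle, rose from 4.87 ± 2.51 to 29.7 ± 3.26 FPKM in p53WT_3dai (2.48, adjusted p = 8.44e-06) and to 30.1 ± 3.72 in p53WT_G2 (2.50, adjusted p = 9.51e-05). Hdac4, a histone deacetylase that represses MEF2, fell from 25.0, 24.4 and 38.6 FPKM in p53WT to 3.60, 3.44 and 2.02 in p53WT_3dai (-2.91, adjusted p = 2.47e-06) and to 9.94 and 11.5 in p53WT_G2 (-1.34, adjusted p = 0.0116). In p53KO Hdac4 fell in 3dai by 2.70 on the log2 scale (adjusted p = 5.25e-06) and in G2 by 1.54 (adjusted p = 0.00492). Carm1, an arginine methyltransferase that coactivates MEF2, rose from 20.5, 18.2 and 18.2 FPKM in p53WT to 54.9, 58.1 and 47.9 in p53WT_3dai (1.45, adjusted p = 7.27e-06). Kat2b, an acetyltransferase that works with MyoD, fell from 19.6, 21.1 and 16.1 FPKM in p53WT to 3.02, 2.50 and 4.39 in p53WT_3dai (-2.23, adjusted p = 2.64e-06). Akap6, an anchoring protein of muscle, rose from 0.815, 2.51 and 1.46 FPKM in p53WT to 6.35 and 8.47 in p53WT_G2 (1.74, adjusted p = 0.00255).

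Of 27 genes of muscle differentiation that the bHLH and Mef2 factors are known to act on, 13 rose and 4 fell in 3dai in p53WT (median 0.96) and 9 rose and 4 fell in p53KO (median 0.46). In G2 23 rose and 0 fell in p53WT (median 3.81) and 20 rose and 0 fell in p53KO (median 3.12). The shares of all genes called were 52.7% and 53.1% in 3dai and 27.5% and 29.6% in G2. Chrnd, a subunit of the acetylcholine receptor, rose in p53WT_3dai to 31.2 ± 7.44 from 0.254 ± 0.440 FPKM (4.71, adjusted p = 6.88e-08). Tnnt2, a troponin T of immature muscle, held 16.6, 12.0 and 28.9 FPKM in p53WT_3dai and 85.4 and 186 in p53WT_G2, where p53WT held 0, 0 and 0.0365 (4.23, adjusted p = 3.66e-07, and 6.97, adjusted p = 4.36e-08). Ckm, the creatine kinase of fibres, was among those that fell in p53WT_3dai, to 1.56 ± 1.61 from 9.30 ± 6.05 (-2.09, adjusted p = 0.0054). Casq2, a calcium store protein, fell from 8.26, 18.6 and 7.82 FPKM in p53WT to 1.90, 1.26 and 0 in p53WT_3dai (-2.64, adjusted p = 0.00137). Actc1, cardiac actin, which is also made in immature muscle, rose from 1.84, 1.66 and 0 FPKM in p53WT to 77.4 and 216 in p53WT_G2 (6.06, adjusted p = 6.32e-06).

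Of 20 muscle stem cell genes, of which Cd34 and Itga7 served in the sort and Hes1 and Heyl are also on the inhibitor list, 2 rose and 15 fell in 3dai in p53WT and 2 rose and 17 fell in p53KO. In G2 2 rose and 6 fell in p53WT and 2 rose and 9 fell in p53KO. Among all genes 52.7% and 53.1% were called in 3dai and 27.5% and 29.6% in G2. Chrdl2, a secreted chordin-like protein, fell from 204, 171 and 249 FPKM in p53WT to 0, 0 and 0.14 in p53WT_3dai (-7.63, adjusted p = 7.19e-11) and to 23.1 and 13.5 in p53WT_G2 (-3.46, adjusted p = 1.24e-06). Calcr, the calcitonin receptor of resting muscle stem cells, fell from 54.5, 30.6 and 55.6 FPKM in p53WT to 0.0707, 0.829 and 0 in p53WT_3dai (-5.21, adjusted p = 1.16e-08). Sdc4, a heparan sulphate proteoglycan of the surface, fell from 1750.1, 1245 and 1196 FPKM in p53WT to 319.9 and 341 in p53WT_G2 (-2.06, adjusted p = 1.25e-05). In p53WT the rises were those of the laminin receptor Itga7, at 87.3, 92.3 and 90.5 FPKM in p53WT, 201, 183 and 205 in p53WT_3dai and 229 and 317 in p53WT_G2, and of 1 further gene per suffix. Sdc3, a syndecan, rose from 8.31, 6.88 and 12.6 FPKM in p53WT to 15.2, 24.1 and 14.1 in p53WT_3dai (0.88, adjusted p = 0.0147). Dag1, dystroglycan, rose from 116, 71.4 and 105 FPKM in p53WT to 273 and 279.9 in p53WT_G2 (1.53, adjusted p = 0.00123).

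Of 10 genes of dividing cells 10 rose in 3dai in both genotypes and 9 in G2 in both. All genes were called at 52.7% and 53.1% in 3dai and at 27.5% and 29.6% in G2. Top2a, which untangles DNA ahead of mitosis, went up from 1.00 ± 0.75 FPKM in p53WT to 158 ± 28.4 in p53WT_3dai (6.36, adjusted p = 2.61e-10) and to 80.2 ± 9.71 in p53WT_G2 (5.40, adjusted p = 1.74e-08). Ccna2, cyclin A2, rose from 1.04, 1.28 and 0.368 FPKM in p53WT to 148, 134 and 155 in p53WT_3dai (6.30, adjusted p = 1.08e-10). Its p53WT_G2 libraries held 48.2 and 53.5. In each genotype comparison and interaction 0 genes of the lists from the E proteins to the dividing cells were called.

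Markers of other cells moved with the suffixes too, and in bulk RNA fewer cells of a type and less RNA per cell cannot be told apart. Their counts against no suffix stand beside 52.7% and 53.1% of all genes called in 3dai and 27.5% and 29.6% in G2. Of 7 pericyte and smooth muscle markers 7 fell in 3dai in both genotypes, with summed FPKM of 270.5 to 912 in p53WT and 308 to 467 in p53KO against 18.3 to 37.1 in p53WT_3dai and 14.1 to 45.4 in p53KO_3dai. In G2 their sums were 583 to 687 and 323 to 559.6, and 0 were called against no suffix. Schwann cell markers fell in 3dai (6 and 5 of 6, sums of 335 to 446 with no suffix against 2.64 to 34.8), and 3 of 6 fell in G2 in each genotype (sums of 107 to 118). Fibro-adipogenic markers fell in 3dai (4 and 3 of 6, sums of 933 to 1148 against 76.6 to 117), and in G2 1 rose and 2 fell in p53WT and 1 rose and 1 fell in p53KO (sums of 534 to 598). Tenocyte markers fell in 3dai (5 of 6 in both, 1 rose, sums of 219 to 428 against 35.9 to 83.8), and in G2 1 rose and 0 fell in p53WT (sums of 458 to 536) and 1 rose and 3 fell in p53KO (227 to 233). Mature fibre markers, which share Ckm and Acta1 with the differentiation genes, had sums of 26.1 to 82.3 with no suffix, 25.4 to 60.8 in 3dai and 420.04 to 985 in p53WT_G2 and 269.99 to 631 in p53KO_G2, and 4 and 5 of 7 tested rose in G2, while 1 and 3 fell in 3dai. Endothelial markers summed to 16.8 to 27.1 with no suffix, 0.281 to 2.87 in 3dai and 5.63 to 13.7 in G2. Of 5 tested, 2 fell in 3dai in each genotype, 1 fell in p53WT_G2, 1 rose and 2 fell in p53KO_G2, and 1 was called higher in p53KO_G2 than in p53WT_G2. Leukocyte and macrophage markers summed to 4.74 to 27.4 with no suffix, 2.02 to 9.52 in 3dai and 5.79 to 20.1 in G2, with Csf1r at 0 throughout. Of 3 tested, 1 fell in 3dai in each genotype and 0 were called in G2 against no suffix. The part of these cells in the results of the members was not tested.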

How the data were processed

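The data are FPKM of 16 bulk RNA libraries. The authors deposited 1 file of FPKM values per library. Per the submitters' processing notes, STAR, Cufflinks, Cuffdiff and the build mm10 were used. Tool versions: not given in the sources used here. According to the labels' protocols, total RNA was isolated with a Qiagen RNeasy Micro kit and libraries were made with NEBNext Ultra II Directional reagents.

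Values were analysed as log2(FPKM + 1). A gene was tested if 2 or more libraries reached 1 FPKM (12954 genes, all 9 members among them). One limma fit (version 3.58.1, R 4.3.3; trended prior variance, no covariates) covered the 6 groups and gave 11 comparisons. Each p is from limma's moderated two-sided test, with Benjamini-Hochberg adjustment within each comparison. Members and gene lists were chosen with earlier results of these data known. Named besides the members are Trp53, the genes of the sort, the 2 largest called rises and falls of each list in p53WT with at least 5 FPKM in the higher group, and the 3 nearest genes of a member. Fos was chosen after its values were seen. Genes with listed zeros were kept at 0. In the alternative that took values of a status other than OK as missing, 14 genes lost a whole group and were not fitted.

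FPKM are scaled within a library, so a few abundant RNAs can move all other values; alternatives with other scaling, pseudocounts, filters, weights, groups and left-out libraries were therefore run. A fit of data simulated from these libraries, with 200 of 12954 genes changed, was run for p53WT_G2 against p53WT. It recovered 16.5% at 2-fold and 87.5% at 4-fold. Of its calls 10.8% and 10.7% were wrong, a larger share than the 0.05 used for calls. Most 2-fold changes were missed there, so a member not called is not shown to be unchanged. Promoter windows are RefSeq entries (GRCm38.p6), matched by symbol for 6 of 9 members.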

Additional observations from a re-analysis of the deposited data

Results flagged for a closer look

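The genotype difference of Myf6 had opposite signs with no suffix and in 3dai, which did not pass correction. The interaction of 3dai with genotype was -1.97 on the log2(FPKM + 1) scale (unadjusted p = 0.000774 by limma). Adjusted over all 12954 genes p was 0.528, so the difference fails the correction. All 3 p53KO libraries were above the p53WT libraries, which are listed at 0, and all 3 p53KO_3dai libraries (0, 0.588 and 0 FPKM) were below the p53WT_3dai libraries (1.14, 1.04 and 1.14). Over all genes tested 6.73% and 12% did not overlap in these comparisons. Every value above 0 rests on about 12 to 76 fragments. Myf6 reached 1 FPKM in 4 libraries, those of p53WT_3dai and p53KO replicate 2, and passed the filter through them. These are the high groups of the interaction, so a difference there was built into the choice of genes tested.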

How the results depend on the processing

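Settings varied were the scaling (quantile, median-of-ratios), the pseudocount (0.1), the filter (none, or a mean of at least 5 FPKM), removal of small RNA and mitochondrial names, values of a status other than OK taken as missing, array weights, fits restricted to the groups compared, a block for the replicate number, and omission of each library. Of 407 alternatives to the 27 called member differences 344 kept the call, 63 lost it and 0 reversed. Of 1169 alternatives to the 72 differences not called 21 became called, and 71 changed sign without a call. The number of members called went from 0 to 1 for p53KO_3dai against p53WT_3dai with array weights, from 5 to 3 for p53WT_G2 against p53WT with no filter, and from 5 to 3 for p53KO_G2 against p53KO with only the groups compared. It went from 3 to 5 for p53WT_G2 against p53WT_3dai with only the groups compared. For p53KO_G2 against p53KO_3dai it went from 2 to 1 with a pseudocount of 0.1, no filter, a mean of at least 5 FPKM, quantile normalization or only the groups compared. With single libraries left out the counts ranged from 0 to 1 for p53KO_3dai against p53WT_3dai (1 without p53KO_3dai replicate 1). They ranged from 3 to 5 for p53WT_G2 against p53WT (3 without either p53WT_G2 library) and for p53KO_G2 against p53KO (3 without p53KO replicate 2 or p53KO_G2 replicate 2). They ranged from 0 to 3 for p53WT_G2 against p53WT_3dai (0 without p53WT_G2 replicate 2) and for p53KO_G2 against p53KO_3dai (0 without p53KO_G2 replicate 2). With 1 library left in a G2 group its spread is taken from the other groups. A mean of at least 5 FPKM leaves Pax3, Myf6 and Mef2c untested. The cause of these changes was not tested.

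Same-numbered replicates did not deviate together (correlations of -0.16 to 0.13), so the numbers are not taken as pairs. With the replicate block 4 of the 5 calls of p53WT_G2 against p53WT held, Mef2c being lost (1.38, adjusted p = 0.0553), and the counts of the other comparisons were within 1.5 times.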
